A study of Mus musculus with 4 samples.

Results

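The BCL2 family decides whether a cell opens the outer membrane of its mitochondria and commits to apoptosis. Pro-survival members such as Bcl2, Bcl2l1 (the gene of BCL-XL) and Mcl1 hold the effectors Bax and Bak1 in check, and the effectors form the pores through which cytochrome c leaves the mitochondrion. BH3-only members sense stress or loss of growth signals and either bind the pro-survival proteins or act on the effectors. In fetal liver the family is known for its part in red cell survival, through Bcl2l1, and in the survival of hepatocytes and blood progenitors, through Mcl1.

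The members were 10 listed genes, and every probe set whose only gene symbol in the platform annotation was one of them was taken. Of these 10 genes, 9 had such probe sets, 29 in all, among 18193 named genes and 45037 probe sets that are not controls on the array. No probe set had Bax as its only symbol, so Bax was not analysed here and Bak1 stands alone for the effectors. To be tested, a probe set had to have a Present call from 2 arrays or more, and 19 of the 29 did, at least 1 for each of the 9 genes.

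RNA came from mesothelial and submesothelial cells isolated by surgery from the livers of C57BL/6 embryos at embryonic day 17.5, either p57-/- (labelled Kip2 -/-, lacking the product of Cdkn1c) or p57+/+ (wild type). There were 2 arrays of p57-/- and 2 of p57+/+, and the titles place 1 array of each genotype in experiment 1 and 1 in experiment 2. The labels do not say whether a sample was 1 embryo or a pool, nor what the arrays of an experiment shared, so a p-value here covers no more than the variation among 4 samples, some of which can be technical. Xist and the Y-linked Eif2s3y gave 7889 and 966 on p57-/- array 1 and 6412 and 904 on p57-/- array 2, against 12199 and 2.56 (Absent) on p57+/+ array 1 and 86.7 and 1734 on p57+/+ array 2. Uty, also Y-linked, gave 270 and 234 in p57-/- against 14.4 (Absent) and 306 in p57+/+. Both p57-/- samples therefore held transcripts of Xist and of Y-linked genes, and the p57+/+ samples differed from each other in them.

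The arrays had 48.5% to 50.1% of probe sets called Present, and their median signals were 76.4 to 83.0. Cdkn1c gave 7.79 and 7.28, both Absent, in p57-/-, against 10255 and 9866 in p57+/+, at least 760-fold lower in p57-/- (limma adjusted p = 1.80e-08). It was the single probe set past the threshold, an adjusted p of 0.05, among 22800 tested, or 0.00439%. All 15 listed mesothelial genes were tested. None passed (limma). At an unadjusted p under 0.05 in limma, 4 were higher and 1 lower in p57-/-, beside 4.7% and 4.07% of all tested genes with 1 probe set each. The genotypes did not overlap at 4 that were higher and 3 that were lower, beside 21.7% and 19.0% of all tested genes. Wt1, a transcription factor gene of the mesothelium, gave 454 and 363 in p57-/- against 255 and 266 in p57+/+, a log2 difference (p57-/- minus p57+/+) of 0.64 (SE 0.21). Bnc1 was at 0.60 (SE 0.18), Alcam at 0.39 (SE 0.12) and Muc16 at -0.56 (SE 0.25). Genes of other cells were tested too, 11 of 12 hepatocyte, 10 of 14 erythroid, 10 of 10 granulocyte and 10 of 10 macrophage genes, so the signals below belong to the isolated tissue and not to 1 cell type. In such a mixture fewer cells of a type and less RNA per cell cannot be told apart.

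The genes of largest difference or lowest p in the lists of other cells gave the following log2 differences, none of which passed (limma). In the erythroid list Klf1 was at -0.60, Rhd at -0.59 and Epor at -0.59, and in the granulocyte list Csf3r was at 0.59, Prtn3 at 0.41 and Mpo at 0.37. In the fibroblast and mesenchyme list Dcn was at 0.53, Pdgfra at 0.45 and Postn at 0.33. The hepatocyte list gave both signs, with Cyp2e1 at -0.55, Apoc3 at 0.32, Cps1 at 0.16 and Hnf4a at 0.13, as did the macrophage list, with Cd14 at 0.62, Cd5l at -0.50 and Fcgr3 at 0.47. Megakaryocyte genes were at 0.38 for Pf4, 0.37 for Itga2b and 0.18 for Ppbp, endothelial genes at 0.44 for Cdh5, 0.30 for Robo4 and 0.22 for Stab2, and lymphoid genes at -0.58 for Ebf1, -0.46 for Vpreb1 and -0.44 for Igll1. Other genes of the fibroblast, endothelial and lymphoid lists had the opposite sign, such as Col1a1 at -0.23, Lyve1 at -0.09 and Il7r at 0.25. In experiment 2 the median was -0.19 for the megakaryocyte list, -0.12 for the endothelial list and 0.01 for the lymphoid list. The part of all these lists in the values of the BCL2 family was not tested.

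No BCL2 family probe set passed the threshold in either direction. Of the 19 tested, 0 were higher and 0 were lower in p57-/- at an adjusted p of 0.05 (limma, lowest adjusted p = 0.642), and 1 had an unadjusted p under 0.05, that of Bcl2l11 and on the higher side, beside 7.67% of all tested probe sets, 3.93% higher and 3.75% lower. The differences were small, with 15 of the 19 under 0.25 on the log2 scale in either direction, as were 64.5% of all tested probe sets, and 0 of the 19 reached 1. The 2 genotypes did not overlap at 9 of the 19, with 5 higher and 4 lower in p57-/-, while 38.6% of all tested probe sets did not overlap, 19.8% higher and 18.8% lower. The 95% interval of the difference lay within 2-fold in both directions at 16 of the 19. The intervals of the other 3, of Bcl2 (both tested probe sets) and of Bcl2l11 (1 probe set), reached past 2-fold, so larger differences are not excluded there. None of these intervals is adjusted for the number of probe sets. In simulated data only 13% of log2 changes of 1 were recovered at the threshold. The absence of a call is therefore weak for all 19.

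**Figure D1:**
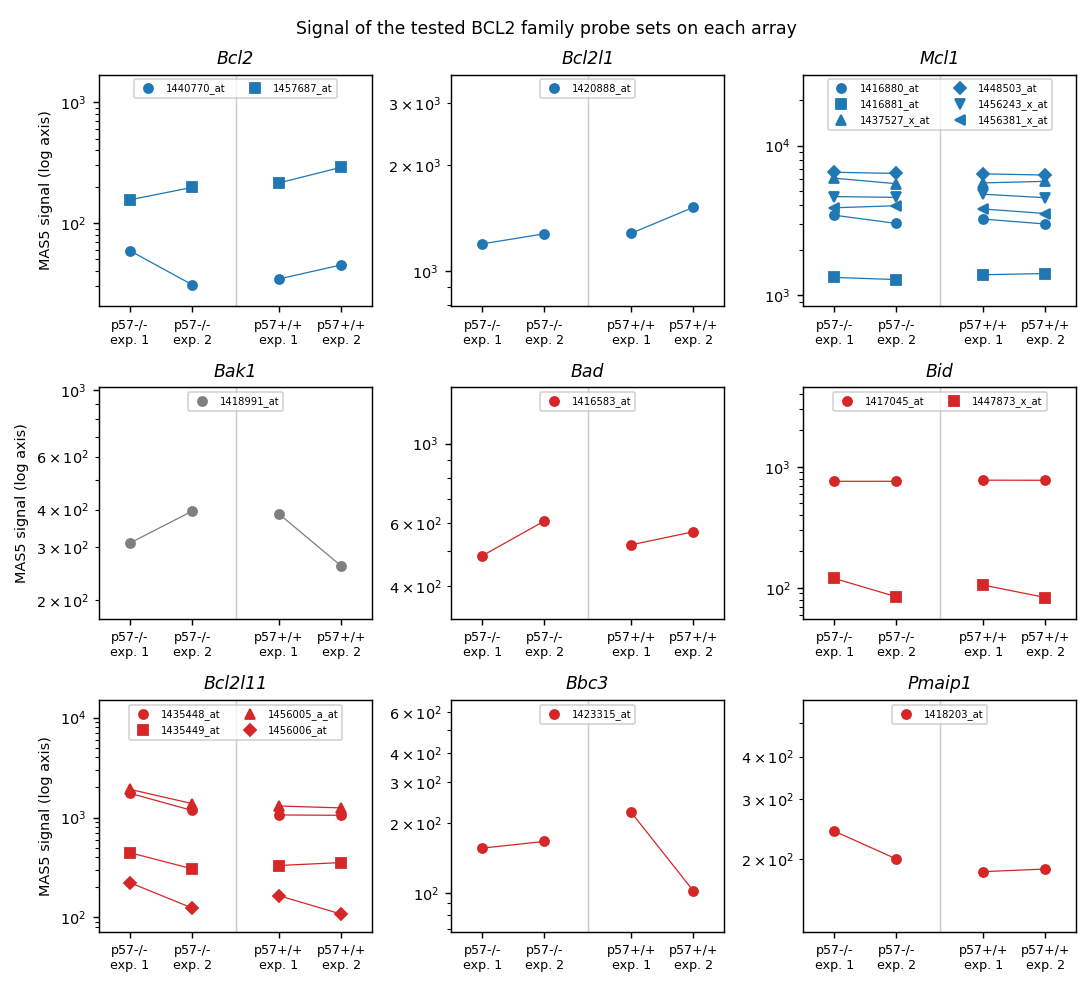
MAS5 signal (vertical axes, log scale, a different range in each panel) of the 19 tested probe sets on the 2 p57-/- arrays (left in each panel) and the 2 p57+/+ arrays (right); each symbol is 1 probe set on 1 array and lines join the arrays of a genotype. The 6 Mcl1 probe sets stay level over the 4 arrays, the 4 Bcl2l11 probe sets are highest on p57-/- array 1, and Bbc3 differs most between the 2 p57+/+ arrays.

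Among the pro-survival genes, Bcl2, the founding member, had the most negative difference of the family. Its probe set 1457687_at gave 156 and 197 in p57-/- against 215 and 289 in p57+/+, Present on all 4 arrays. The genotypes did not overlap, and the gap to the nearest p57+/+ array was small. The log2 difference, p57-/- minus p57+/+, was -0.51 (SE 0.26, limma adjusted p = 0.666), with -0.46 in experiment 1 and -0.55 in experiment 2. As a ratio this was 0.703 (95% interval 0.471 to 1.05). The log2 difference depended on single arrays, at -0.34 without p57-/- array 1 and -0.29 without p57+/+ array 2, and at -0.72 without p57+/+ array 1. The second tested probe set, 1440770_at, gave 58.9 and 30.9 (Absent) in p57-/- against 34.5 (Absent) and 45.0 in p57+/+, with 0.77 in experiment 1 and -0.54 in experiment 2. It thus had no direction of its own to set beside the first. The remaining 3 Bcl2 probe sets were Present on no array and did not enter the test.

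Bcl2l1 encodes BCL-XL, the pro-survival protein on which maturing red cells depend. Its tested probe set 1420888_at gave 1194 and 1275 in p57-/- against 1280 and 1516 in p57+/+, where the upper p57-/- array and the lower p57+/+ array almost met. The log2 difference was -0.17 (SE 0.15, limma adjusted p = 0.792), with -0.10 in experiment 1 and -0.25 in experiment 2, and its 95% interval ran from -0.51 to 0.16. The arrays stood in the same order in the summed signal of the erythroid list. At Klf1, Epb42 and Epor the p57+/+ arrays stood the other way round. Of this list 10 of 14 genes were tested, while 3 had no probe set and 1 did not pass the filter. All 10 were lower in p57-/- in both experiments, and none passed (limma). Their summed signal was 70878 and 94865 in p57-/- against 105542 and 111430 in p57+/+, and the gene of the erythropoietin receptor, Epor, which drives Bcl2l1 in red cell precursors, gave 572 and 768 in p57-/- against 999 and 996 in p57+/+. Probe set 1457687_at of Bcl2 had the order of arrays of the summed signal too. The part of the erythroid list in the Bcl2l1 and Bcl2 values was not tested. A further 3 Bcl2l1 probe sets were Present on 1 array or none.

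Mcl1, whose protein is short-lived and is replaced by continued transcription, was the most fully measured member, with 6 tested probe sets that were Present on all 4 arrays. Probe set 1448503_at gave 6633 and 6519 in p57-/- against 6476 and 6356 in p57+/+, a log2 difference of 0.04 (SE 0.11, 95% interval -0.21 to 0.28, limma adjusted p = 0.950). Over the 6 probe sets the difference lay between -0.10 (1416881_at, 1318 and 1275 in p57-/- against 1373 and 1399 in p57+/+) and 0.10 (1456381_x_at, 3843 and 3967 in p57-/- against 3771 and 3520 in p57+/+). Signs were mixed, with 4 above and 2 below 0. Within either genotype the 2 arrays were at most 0.18 apart on the log2 scale. For 1448503_at the interval excludes a difference of more than 1.22-fold upwards or a ratio under 0.864. Probe sets whose names end in x_at, 3 of the 6, contain probes that can bind other transcripts too.

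The effector Bak1 showed no shared direction. Its tested probe set 1418991_at gave 309 and 395 in p57-/- against 387 and 259 in p57+/+, so the genotypes overlapped. The log2 difference was -0.32 in experiment 1 and 0.61 in experiment 2, and 0.14 over all arrays (SE 0.25, limma adjusted p = 0.910). Its other probe set, 1425716_s_at, was Absent on all 4 arrays and was not tested. It gave 7.25 and 2.98 in p57-/- against 29.0 and 41.3 in p57+/+, and signals without detection were not read as a difference.

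Of the BH3-only genes, Bcl2l11, which encodes BIM, had the most positive differences of the family. BIM can bind every pro-survival protein of the family, and its gene is known to be induced by FOXO transcription factors when growth factors are withdrawn. Probe set 1435448_at gave 1748 and 1177 in p57-/- against 1061 and 1053 in p57+/+. Probe set 1456005_a_at gave 1913 and 1379 in p57-/- against 1303 and 1248 in p57+/+. At both the genotypes did not overlap, p57-/- array 1 stood apart, and p57-/- array 2 lay just above the p57+/+ arrays. The log2 differences were 0.44 (SE 0.19, limma unadjusted p = 0.0440, adjusted p = 0.642) and 0.35 (SE 0.17, adjusted p = 0.655). As a ratio the first was 1.36 (95% interval 1.01 to 1.82, before any adjustment for the number of probe sets).

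The difference in Bcl2l11 was larger in experiment 1. For 1435448_at it was 0.72 in experiment 1 and 0.16 in experiment 2, and for 1456005_a_at 0.55 and 0.14. Without p57-/- array 1 the first was 0.16, and without p57-/- array 2 it was 0.73 (limma adjusted p = 0.0669), short of the threshold. The other tested probe sets, 1456006_at and 1435449_at, overlapped between genotypes. They gave 222 and 124 in p57-/- against 165 and 108 in p57+/+, and 444 and 307 in p57-/- against 331 and 354 in p57+/+, with log2 differences of 0.32 (SE 0.35) and 0.11 (SE 0.22). All 4 were thus above 0 on average, and 1435449_at was below 0 in experiment 2, at -0.21.

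Some of the lists of other cells also set p57-/- array 1 apart. The summed signal of the 10 tested genes of 12 in the submesothelial fibroblast and mesenchyme list was 87827 and 79038 in p57-/- against 67888 and 76268 in p57+/+. That of the 8 tested endothelial genes of 9 was 10249 and 7718 in p57-/- against 7905 and 8822 in p57+/+, and that of the 5 tested megakaryocyte genes of 6 was 16706 and 10576 in p57-/- against 10297 and 11641 in p57+/+. All 3 sums were highest on p57-/- array 1, as was that of the 10 macrophage genes, while the erythroid and lymphoid sums were lowest there. The mesothelial sum did not set that array apart, at 21690 and 25259 in p57-/- against 20515 and 25854 in p57+/+. The hepatocyte and granulocyte sums were neither highest nor lowest there. The part of these lists in the Bcl2l11 values was not tested.

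The promoter windows of 2 BH3-only genes hold the core to which FOXO factors bind. RefSeq windows of build GRCm38.p6, from 250 bases before to 50 bases after a start, were searched on both strands for GTAAACA. The search covered 15 windows of 9 of the 10 listed genes, Bax among them. Member windows, but not the set of all windows, were first filtered by chromosome, and no window of Pmaip1 was searched. The core was found in 2 of the 15, 1 window each of Bcl2l11 and Bbc3, against 3.65% of all 32851 windows. Bcl2l11 and Bbc3 are textbook FOXO targets, and of the windows of each gene only the 1 with the core is shown. Their other windows, which lack the core, are left out. The window of Bcl2 is shown because that gene stood at the other end of the differences. Capitals mark the core, read on the strand of the gene as GTAAACA or as its reverse complement TGTTTAC.
Bcl2l11 promoter, chr2:128125788-128126087, + strand: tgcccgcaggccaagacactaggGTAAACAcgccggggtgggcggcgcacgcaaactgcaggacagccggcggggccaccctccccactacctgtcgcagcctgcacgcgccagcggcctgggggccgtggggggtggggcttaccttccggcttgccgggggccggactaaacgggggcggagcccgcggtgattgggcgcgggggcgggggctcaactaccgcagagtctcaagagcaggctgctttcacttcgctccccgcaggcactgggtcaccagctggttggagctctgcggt
Bbc3 promoter, chr7:16310011-16310310, + strand: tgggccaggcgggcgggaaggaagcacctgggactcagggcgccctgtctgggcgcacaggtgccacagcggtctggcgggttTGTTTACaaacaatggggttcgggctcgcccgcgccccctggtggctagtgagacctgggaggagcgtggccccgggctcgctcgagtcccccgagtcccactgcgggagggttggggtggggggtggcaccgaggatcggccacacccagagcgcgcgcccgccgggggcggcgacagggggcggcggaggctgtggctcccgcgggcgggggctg
Bcl2 promoter, chr1:106714241-106714540, - strand: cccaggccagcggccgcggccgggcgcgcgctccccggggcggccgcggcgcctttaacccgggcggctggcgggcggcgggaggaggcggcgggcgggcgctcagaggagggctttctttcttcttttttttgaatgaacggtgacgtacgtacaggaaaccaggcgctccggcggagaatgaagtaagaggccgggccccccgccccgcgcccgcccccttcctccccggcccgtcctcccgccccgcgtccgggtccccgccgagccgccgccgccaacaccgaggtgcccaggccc
The window of Bcl2 has no capitals because the core is not in it, which says nothing of FOXO binding elsewhere in the gene. The E2F core, as TTTCCCGC or TTTGGCGC, was found in 0 of the 15 windows, against 1.56% of all windows. The member windows were rich in G and C, with a median of 65.7% and a range of 49.3% to 78.0%, against a median of 52.7% over all windows.

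Bbc3 encodes PUMA, a main link from p53 to apoptosis, and its only probe set, 1423315_at, was Present on all 4 arrays. It gave 156 and 166 in p57-/- against 222 and 102 in p57+/+. The p57-/- arrays lay between the p57+/+ arrays, which were 1.12 apart on the log2 scale. The difference was accordingly -0.51 in experiment 1 and 0.71 in experiment 2, with 0.10 over all arrays (SE 0.36, limma adjusted p = 0.960). Of the FOXO genes in the regulator list, Foxo3 was at -0.25 (SE 0.20) and Foxo1, named after its value was seen, at 0.14 (SE 0.17).

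Pmaip1, the gene of NOXA, which binds MCL1 and marks it for degradation, gave 242 and 200 in p57-/- against 184 and 187 in p57+/+ at its only probe set, 1418203_at. The genotypes did not overlap, and again p57-/- array 1 was highest and array 2 close to p57+/+. The log2 difference was 0.25 (SE 0.24, limma adjusted p = 0.820), with 0.40 in experiment 1 and 0.10 in experiment 2.

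Bad and Bid, which are regulated mainly at the level of their proteins, by phosphorylation of BAD and cleavage of BID, had differences near 0. Bad gave 485 and 607 in p57-/- against 521 and 566 in p57+/+ at 1416583_at, a log2 difference of -0.0016 (SE 0.18, 95% interval -0.41 to 0.41). Bid gave 759 and 760 in p57-/- against 776 and 775 in p57+/+ at 1417045_at, a difference of -0.03 (SE 0.15, 95% interval -0.37 to 0.31). These 4 Bid signals did not overlap between genotypes although the log2 difference was -0.03 in both experiments, so the count of probe sets without overlap includes gaps as small as this. The second Bid probe set, 1447873_x_at, gave 120 and 84.4 in p57-/- against 105 and 83.2 (Absent) in p57+/+, and overlapped. The second Bad probe set, 1416582_a_at, gave 627 and 663 in p57-/- against 609 and 651 in p57+/+ but was called Absent on all 4 arrays and was not tested. In all, 10 member probe sets were not tested, 9 of them Present on no array and 1 on a single array, and 7 of the 10 were under 100 on every array.

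**Figure D2:**
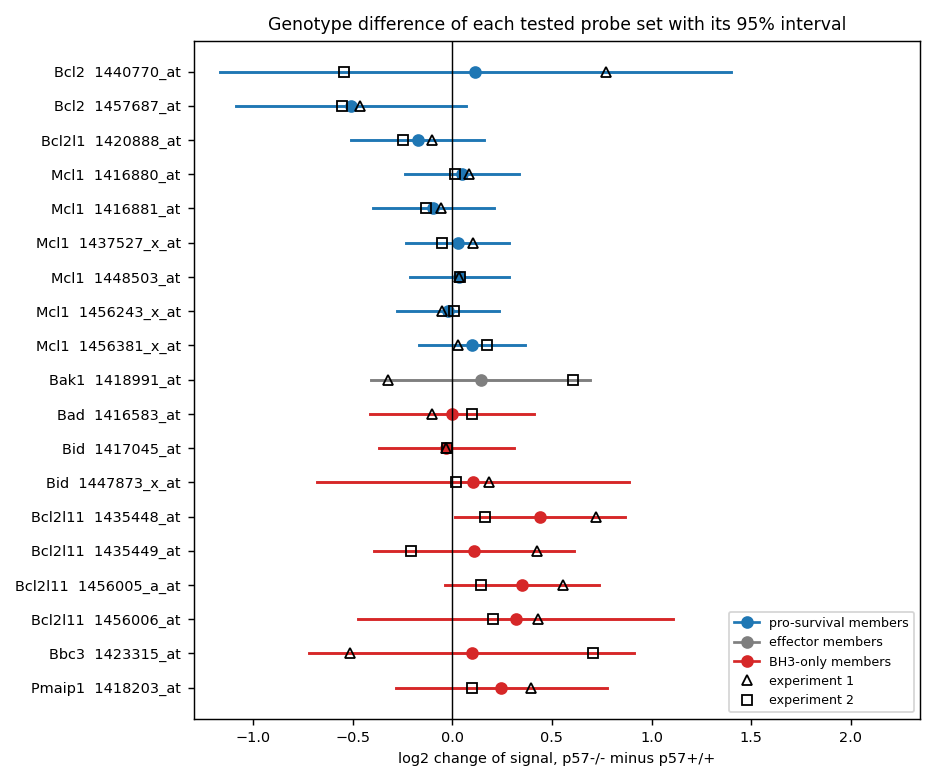
Log2 difference of signal, p57-/- minus p57+/+, for the 19 tested probe sets (filled circles) with the 95% interval from limma (bars), coloured by role; open triangles and squares give experiments 1 and 2. Only 1 of the intervals, that of Bcl2l11 1435448_at before adjustment, leaves out 0, and for Bak1 and Bbc3 the experiments lie on opposite sides of 0.

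Set side by side, the medians of the roles ran from -0.17 to 0.14 on the log2 scale. With 1 probe set a gene, the brightest tested one, the median log2 difference of the pro-survival genes was -0.17 (3 genes, -0.51 to 0.04), that of the BH3-only genes 0.10 (5 genes, -0.03 to 0.35), and the effector Bak1 was at 0.14. The median over all 11656 tested genes was 0.02. In experiment 1 the medians were -0.10 for pro-survival and -0.03 for BH3-only genes, with Bak1 at -0.32, and in experiment 2 they were -0.25 and 0.10, with Bak1 at 0.61. The pro-survival median was thus the lower one in both experiments, while the BH3-only median was on different sides of 0. With 3 genes, the pro-survival median was each time the value of Bcl2l1. Over all 19 probe sets, 8 were higher and 4 lower in p57-/- in both experiments and 7 went opposite ways, beside 54.7% of all tested probe sets that kept 1 direction, 27.9% higher and 26.8% lower. With so few genes per role these medians are descriptions and carry no test.

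**Figure D3:**
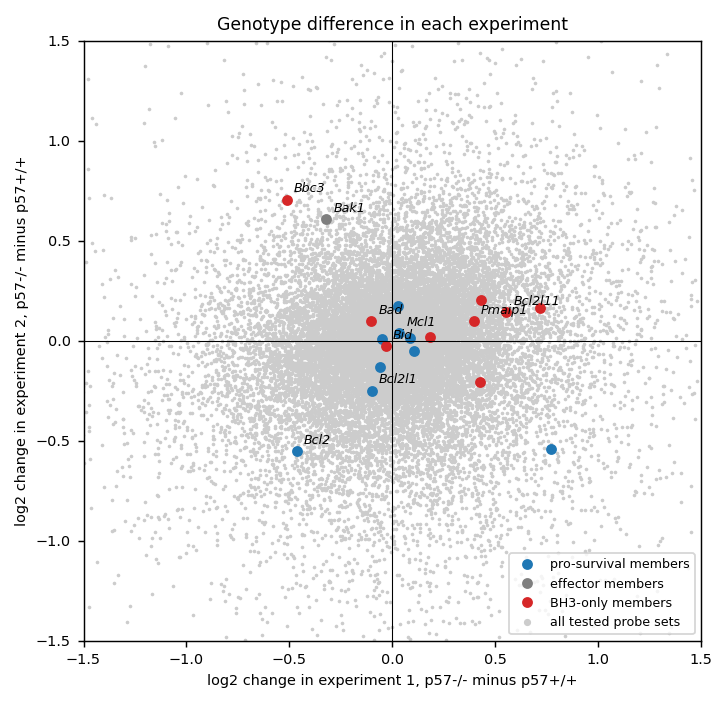
Log2 difference in experiment 1 (horizontal axis) against experiment 2 (vertical axis), p57-/- minus p57+/+, for the 19 tested BCL2 family probe sets (coloured by role, the brightest of each gene named) over all tested probe sets (grey; 594 of 22800 lie outside the axes). Bcl2 lies low in both experiments, Bcl2l11 and Pmaip1 lie high mainly in experiment 1, and Bak1 and Bbc3 lie in the quadrant of opposite directions.

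Genes that act beside or below these members were likewise without a call. The 6 lists held 88 genes, of which 64 were tested, and 0 passed (limma, lowest adjusted p = 0.519). At an unadjusted p under 0.05, 4 were higher and 1 lower, beside 8.77% of all tested genes with 1 probe set each, 4.7% higher and 4.07% lower. The genotypes did not overlap at 16 that were higher and 10 that were lower, beside 40.7% of all tested genes, 21.7% higher and 19.0% lower. In both experiments 56.3% of all tested genes kept 1 direction, 29.6% higher and 26.7% lower, against which the counts of each list can be read. The median over the 64 was 0.03.

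In the list of other BCL2 family genes, 7 of 17 were tested, with a median of 0.21, and 4 were higher in both experiments and 0 lower. Bmf, a BH3-only gene whose protein is tethered to the cytoskeleton, gave 642 and 530 in p57-/- against 420 and 425 in p57+/+, a log2 difference of 0.47 (SE 0.18, limma adjusted p = 0.606). Bnip3, better known for removing mitochondria in hypoxia, was at 0.46 (SE 0.10, adjusted p = 0.519), and Bcl2l12 was at 0.33 (SE 0.21) with p57-/- array 1 called Absent. Bcl2l2, the gene of the pro-survival protein BCL-W, gave 667 and 518 in p57-/- against 542 and 528 in p57+/+, and overlapped (named after its values were seen).

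Downstream of the pores, 11 of 13 genes of the apoptosome and caspase list were tested, with a median of -0.16, and 4 were higher and 5 lower in both experiments. Cycs, which encodes cytochrome c, was lower at all 3 of its tested probe sets, the brightest giving 16463 and 17909 in p57-/- against 20593 and 18608 in p57+/+, at -0.19 (SE 0.11, limma adjusted p = 0.705). Aifm1, a mitochondrial flavoprotein gene, was at -0.29 (SE 0.14), Casp6, an executioner caspase gene, at 0.32 (SE 0.14), and the nuclease gene Dffb at 0.36 (SE 0.24), with its 2 probe sets on different sides of 0. Casp9, the initiator caspase gene, was at -0.29 (SE 0.23) and Apaf1, its scaffold, at 0.24 (SE 0.15), named after their values were seen. The 2 tested probe sets of Apaf1 lay on different sides of 0. The mitochondrial and the caspase genes of the list thus gave both signs.

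The inhibitors of apoptosis, which block caspases or tag them for degradation, had 8 of 10 genes tested and a median of 0.11, with 5 higher and 2 lower in both experiments. Xiap, the direct caspase inhibitor, gave 5089 and 4398 in p57-/- against 4062 and 3682 in p57+/+, at 0.29 (SE 0.13, limma adjusted p = 0.642), and 5 of its 7 tested probe sets were higher. Birc3 was at 0.25 (SE 0.17), Naip5 at 0.25 (SE 0.26), and Birc6 at -0.14 (SE 0.13) with all 3 tested probe sets lower.

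The death receptor list had 7 of 11 genes tested and a median of 0.06, with 2 higher and 1 lower in both experiments. Its largest differences were Tnfsf10, the gene of TRAIL, at -0.48 (SE 0.62) with p57-/- array 1 Absent, the adaptor Tradd at -0.30 (SE 0.23) and the receptor Tnfrsf1b at 0.28 (SE 0.17). None of these passed in limma.

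The p53 pathway list had 13 of 19 genes tested and a median of 0.01, with 3 higher and 3 lower in both experiments. Aen, an apoptosis nuclease gene induced by p53, gave 417 and 289 in p57-/- against 510 and 383 in p57+/+, at -0.35 (SE 0.24, limma adjusted p = 0.748), and was lower at all 3 tested probe sets, though the genotypes overlapped at this one. Perp was at -0.24 (SE 0.14), Btg2 at -0.24 (SE 0.13) and Trp53inp1 at 0.23 (SE 0.15). Trp63 was at -2.06 (SE 1.64), with 46.1 and 1.04 (Absent) in p57-/- against 32.0 and 26.1 (Absent) in p57+/+. Cdkn1a, the p53 target that encodes the inhibitor p21, was at 0.20 (SE 0.24), named after its value was seen. It was at 0.68 in experiment 1 and -0.28 in experiment 2, and its 2 tested probe sets lay on different sides of 0.

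Of the partners and regulators all 18 genes were tested, with a median of -0.01, and 4 were higher and 6 lower in both experiments. A pair of them act on the MCL1 protein. Huwe1, a ubiquitin ligase that marks MCL1 for degradation, gave 1506 and 1409 in p57-/- against 1934 and 1921 in p57+/+, at -0.40 (SE 0.13, limma adjusted p = 0.559), although another of its 3 tested probe sets was higher. Usp9x, which removes ubiquitin from MCL1, gave 1408 and 1345 in p57-/- against 1190 and 1163 in p57+/+, at 0.23 (SE 0.14, adjusted p = 0.714), but 4 of its 5 tested probe sets were lower. The 14-3-3 gene Ywhaz, whose protein holds phosphorylated BAD, was at 0.16 (SE 0.11), with 3 of its 7 tested probe sets higher and 4 lower.

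**Figure D4:**
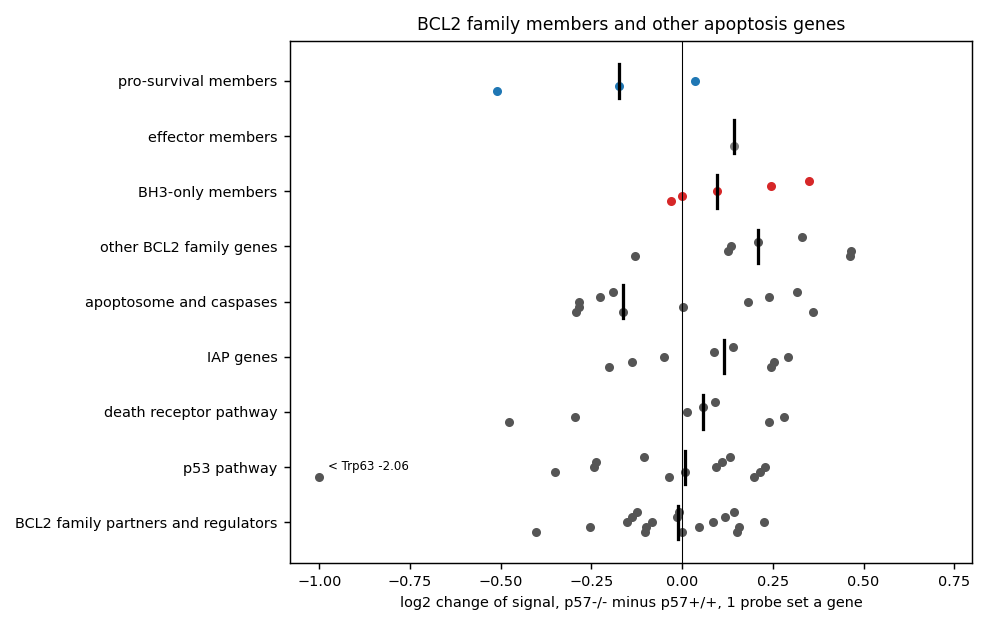
Log2 difference of signal, p57-/- minus p57+/+, of each tested gene (points, 1 probe set a gene) in the 3 roles of the BCL2 family and the 6 lists of other apoptosis genes, with the median of each as a bar. The bars run from -0.17 to 0.21, and Trp63, at -2.06, is drawn at the left edge.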

How the data were processed

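Each sample was hybridised to 1 Affymetrix array as biotinylated cRNA from 250 ng of RNA, per the labels. For every probe set the authors deposited a signal (a linear intensity), a detection call (Present, Marginal, Absent) and its p-value, made with MAS5 per the submitters' processing notes, with no settings stated in the labels or headers. The mean signal after trimming 2% at each end was 500.003 on every array, so arrays had been scaled to 1 target, which hides a change in total RNA. The deposited value table held the same intensity values.

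Signals were log2 transformed. Probe sets Present on at least 2 of 4 arrays were compared in limma 3.58.1 (R 4.3.3; lmFit, eBayes with trend, two-sided, Benjamini-Hochberg over 22800 probe sets), with no block. The script was tested on simulated data, where 13% of log2 changes of 1 and 72% of log2 changes of 3 were recovered at the threshold. In medians a gene was taken at its brightest tested probe set, by mean log2 signal. Members and lists were chosen with earlier results of these data known. From each other list the 3 genes of largest difference and of lowest p were named. Array values of Bax and protein sequences were not analysed here. Promoter windows, of Bax too, came from RefSeq, build GRCm38.p6. No ranking by likeness was made over 4 arrays. Quantile normalization, other filters, a signal floor of 16, no trend, a replicate block, averaged probe sets, the value table and left-out arrays were alternatives.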

Additional observations from a re-analysis of the deposited data

How the results depend on the processing

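No BCL2 family probe set passed in limma under any alternative run: quantile normalization, no detection filter (29 probe sets), Present on all 4 arrays (17), a signal floor of 16, no variance trend, the value table, the replicate block or any left-out array. Experiment numbers were not shown to pair the samples (the deviations of same-numbered arrays correlated at 0.0046 over 22800 probe sets), and with the replicate block 0 of the 19 members and 30 of all tested probe sets passed, against 1 without it. Over all tested probe sets the count was 12 without p57-/- array 1, 221 without p57-/- array 2, 5 without p57+/+ array 1 and 9 without p57+/+ array 2, where the lone array is assumed to vary like the other genotype. The number of members without overlap was 9 with all arrays, 14 without p57-/- array 1, 16 without p57-/- array 2, 15 without p57+/+ array 1 and 11 without p57+/+ array 2, since fewer arrays overlap less often, and 12 had 1 direction in both experiments, an alternative chosen after seeing the data. With 1 array left out, the pro-survival median ran from -0.30 to -0.052 and the BH3-only median from 0.049 to 0.23. Within experiment 1, also added later, the BH3-only median was -0.032, and the cause was not tested. Single probe sets kept their sign in 131 of 131 values with all arrays. Of these alternatives only quantile normalization altered the log2 difference beyond rounding, so the other values could not turn. With 1 array left out 15 values turned, none of them called, in these ranges: Bcl2 1440770_at -0.35 to 0.58, Mcl1 1416880_at -0.042 to 0.14, 1437527_x_at -0.035 to 0.088 and 1456243_x_at -0.061 to 0.016, Bak1 -0.15 to 0.43, Bad -0.16 to 0.16, Bid 1447873_x_at -0.15 to 0.35, Bcl2l11 1435449_at -0.16 to 0.38 and 1456006_at -0.10 to 0.74, and Bbc3 -0.47 to 0.66. Among those that kept their sign, Bcl2 1457687_at ran from -0.72 to -0.29, Bcl2l11 1435448_at from 0.16 to 0.73, Bcl2l11 1456005_a_at from 0.11 to 0.58 and Pmaip1 from 0.11 to 0.38.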
